A study of Mus musculus with 6 samples.

Results

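Aortae of ApoE-/- mice on chow were compared with aortae of wild-type C57BL/6J mice on chow, so that genotype differed while the diet did not. The comparison used 4 of the 6 libraries of the series, chosen by their labels: ApoE-/- chow 1 and 2 (labelled control-1 and control-2) and C57BL/6J 1 and 2. The strain is given as C57BL/6 for every library, and the tissue was whole aorta taken as total RNA. The other 2 libraries came from aortae of ApoE-/- mice that began a high-fat diet when 3 months old and stayed on it for 3 months. They entered the estimate of the spread, and their values are given where they help to place a gene. The labels give neither the knockout allele nor the age of the chow-fed animals, and nothing says that the 2 libraries of a group came from separate animals. The p-values therefore measure the spread between these libraries, which may be technical. Genotype and any batch cannot be told apart, because the ApoE-/- chow libraries carry sample numbers apart from those of the other 4 and no dates are given. The columns of ApoE-/- chow 1 are named for a C57 sample. Its label was kept, and values without it are given for the numbers of calls and for some of the named genes.

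Apolipoprotein E sits on chylomicron remnants and very-low-density lipoprotein and is the ligand through which hepatic receptors of the LDL receptor family take them up. Mice that lack it carry high plasma cholesterol even on chow and form lesions of lipid-laden macrophages and smooth muscle cells in the aorta with age, faster on a fatty diet. A circular RNA (circRNA) forms when the end of an exon is spliced back to an upstream acceptor. Junction reads, which cross that join, are the direct evidence for it. Reads inside the circRNA's genomic interval that do not cross the join can also come from the linear transcript or from introns, and are called interval reads here.

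The 4 libraries held 77352690 and 75452177 reads in ApoE-/- chow and 71809199 and 69130844 in C57BL/6J, while their junction reads numbered 14575 and 14519 in ApoE-/- chow and 26605 and 3706 in C57BL/6J. Rpph1, the RNA of ribonuclease P, took 8668 and 5166 reads in every 1000000 (RPM) in ApoE-/- chow, against 12131 and 2230 RPM in C57BL/6J. That RNA, together with Rmrp, Rn45s and mitochondrial rows, was left out of scaling, which removed 57.6% and 45.4% of interval reads in ApoE-/- chow and 69.8% and 28.7% in C57BL/6J. Across 5141 host genes the interval levels (log2 of scaled reads plus 1) correlated at Pearson r = 0.889 between the ApoE-/- chow libraries and 0.770 between the C57BL/6J libraries, a description over genes of 4 libraries. ApoE-/- chow 1 correlated with ApoE-/- chow 2 at 0.889, with C57BL/6J 1 at 0.856 and with C57BL/6J 2 at 0.838. The C57BL/6J pair was thus less alike than any of the 4 pairs taken across genotypes, whose r ran from 0.838 to 0.867. Replicates differed more than 2-fold in 1223 of 6117 host genes in ApoE-/- chow and in 2225 in C57BL/6J.

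Apoe itself is read in a single listed interval of 71 bp at chr7:19696367-19696437 (GRCm38), at the 3' end of the gene, which lies on the minus strand at 19696244 to 19701310. It held 128 and 86 interval reads in ApoE-/- chow, 176 and 140 in C57BL/6J and 78 and 75 in the high-fat libraries. Scaled, these were 189 and 137 reads per 1000000 scaled interval reads (CPM) in ApoE-/- chow, against 353 and 244 CPM in C57BL/6J and 103 and 128 CPM in high-fat libraries. Both ApoE-/- chow values lay below both C57BL/6J values, at a mean of 163 ± 36.5 against 298 ± 76.8 CPM (SD, n = 2 each). The log2 fold change was -0.87 ± 0.47 (SE; edgeR, unadjusted p = 0.076, adjusted p = 0.9999). With the allele not given, reads at this end of the gene do not check the genotype labels. The Apoe join was crossed by 0 and 0 reads in ApoE-/- chow and by 0 and 1 in C57BL/6J, too few for a fold.

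The library labelled ApoE-/- chow 1, whose columns carry a C57 name, was closer to the other ApoE-/- libraries than to the C57BL/6J ones in its interval levels. Its r was 0.889 with ApoE-/- chow 2 and 0.905 and 0.883 with the high-fat libraries, against 0.856 and 0.838 with C57BL/6J 1 and 2. The C57BL/6J libraries were also closer to every ApoE-/- library than to each other (r = 0.770). With the ApoE-/- libraries r ran from 0.851 to 0.870 for C57BL/6J 1 and from 0.801 to 0.867 for C57BL/6J 2. These correlations did not sort the libraries by genotype and so do not check the label. The 189 CPM of Apoe in ApoE-/- chow 1 lay between the 137 CPM of ApoE-/- chow 2 and the 244 CPM of C57BL/6J 2, and without ApoE-/- chow 1 the log2 fold change of Apoe was -1.13. Leaving it out gave 1 call among circRNAs, that of Pcdh7, and 0 among host junction sums and host interval sums (edgeR).

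The yield of junction reads was near equal in the ApoE-/- chow libraries and far apart in the C57BL/6J ones. It was 188 and 192 RPM in ApoE-/- chow, against 370 and 53.6 RPM in C57BL/6J. The means were 190 ± 2.83 and 212 ± 224 RPM (SD, n = 2 each), a ratio of 0.898 that was not distinguishable from 1 (exact two-sided permutation test, p = 1; 2 against 2 libraries allow no p below 0.333). Without C57BL/6J 1 the ratio was 3.55, and without C57BL/6J 2 it was 0.514, so the direction rested on which wild-type library was kept. The library with the low yield was also the lowest in Rpph1, and the part of that in the result was not tested.

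The number of circRNAs seen followed the yield. A junction read was found for 3506 and 4135 circRNAs in ApoE-/- chow and for 5393 and 1810 in C57BL/6J, with means of 3820.5 ± 445 and 3601.5 ± 2534 and a ratio of 1.06 (exact two-sided permutation p = 1). At an equal depth of 3675 junction reads the expected numbers came to 1835 and 1979 in ApoE-/- chow and 1986 and 1810 in C57BL/6J. Both ApoE-/- chow libraries lay between the C57BL/6J ones at equal depth.

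**Figure D1:**
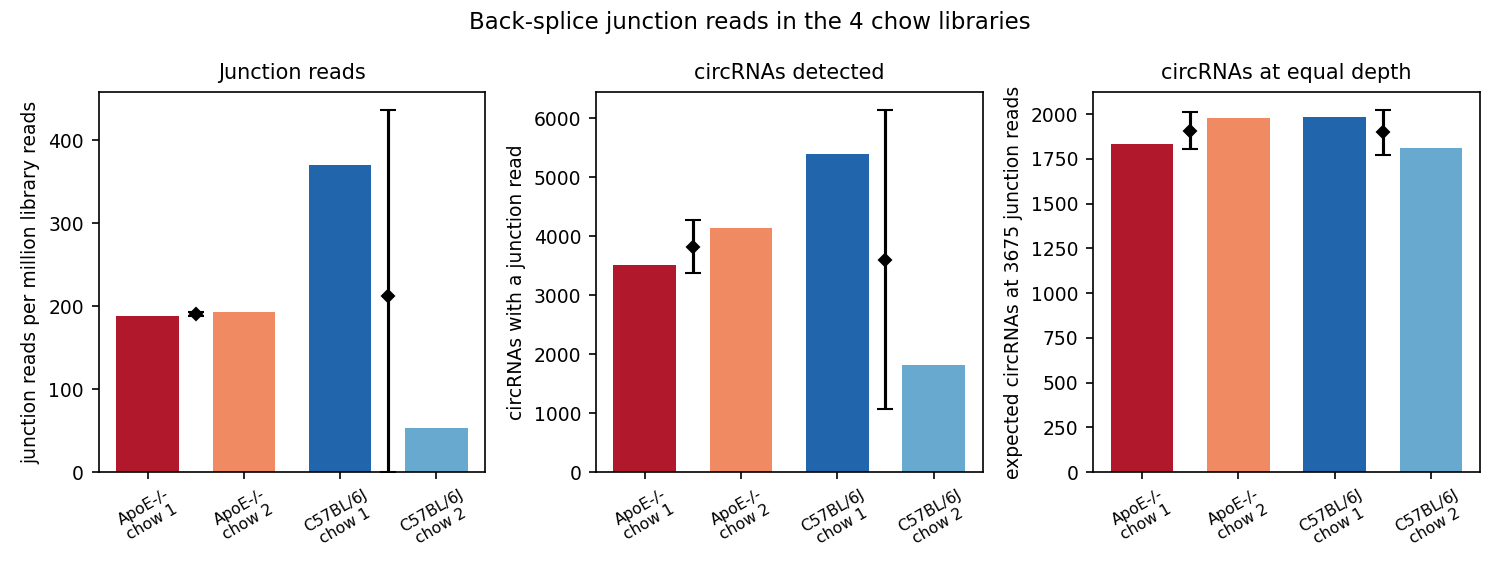
Junction reads as RPM of the library, circRNAs with a junction read, and circRNAs expected at 3675 junction reads in the 4 chow libraries (bars), with group mean and SD (black, n = 2 each, SD bars end at 0 where they would pass below it). Junction yield is 188 and 192 RPM in ApoE-/- chow and 370 and 53.6 RPM in C57BL/6J, while the values at equal depth run from 1810 to 1986.

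Few circRNAs recurred. Of 11856 circRNAs with a junction read in any chow library, 9867 (83.2%) were seen in 1 library and 222 (1.87%) in all 4. ApoE-/- chow 1 and 2 shared 873 circRNAs, which is 24.9% of the first library and 21.1% of the second. C57BL/6J 1 and 2 shared 384, which is 7.12% of C57BL/6J 1 and 21.2% of C57BL/6J 2. Across genotypes, ApoE-/- chow 1 and C57BL/6J 1 shared 1100, or 31.4% of one and 20.4% of the other. ApoE-/- chow 1 thus shared more circRNAs with C57BL/6J 1, which held more junction reads, than with ApoE-/- chow 2.

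The 222 circRNAs found in all 4 libraries took a like share of junction reads everywhere, 25.3% and 24.9% in ApoE-/- chow and 24.7% and 22.9% in C57BL/6J. Their median genomic span was 4075 bp, against 1432 bp for those seen in 1 library. Of the 200 that could be tested, 120 had a positive and 80 a negative log2 fold change, with a median of 0.13. Over all 1013 circRNAs tested 56.9% were positive and the median was 0.19. A further 192 circRNAs had reads in both ApoE-/- chow libraries and neither C57BL/6J library, and 66 the reverse. Of the 192, 130 were also read in a high-fat library, as were 42 of the 66. C57BL/6J 2 held 3675 junction reads outside the left-out rows, so a circRNA absent from it could still make up 81.6 of every 100000 junction reads (the limit that a count of 0 allows, counting error only). That limit was 20.6 and 20.7 in the ApoE-/- chow libraries and 11.4 in C57BL/6J 1.

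No single circRNA passed the test for a difference between genotypes. Of 1013 circRNAs tested, 0 were called at an adjusted p under 0.05 (edgeR; 0 by DESeq2), which is 0% in each direction. At an unadjusted p under 0.05 edgeR had 56 (5.53%), of which 34 (3.36%) were higher and 22 (2.17%) lower in ApoE-/- chow, and DESeq2 had 20. Scaled values of the 2 groups did not overlap for 162 circRNAs higher in ApoE-/- chow (16%) and 64 lower (6.32%). A circRNA could be lower without overlap only if C57BL/6J 2, at 3675 junction reads, held a read of it. The part of that in these numbers was not tested. With scaling to total reads the median log2 fold change over all circRNAs was -0.10 in place of 0.19, so the sign of the median depends on the scaling. The median also moved with the wild-type library kept, to 4.72 without C57BL/6J 1 and -0.17 without C57BL/6J 2. The numbers of circRNAs without overlap were not recounted in these settings.

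The 5 circRNAs with the lowest p among those higher in ApoE-/- chow were those of Peli2, Cdc14b, Magi1, Adrm1 and Hoxb3. Each lies inside its gene on GRCm38, and none passed. The Peli2 circRNA (chr14:48168197-48179276), from a gene for an E3 ubiquitin ligase of Toll-like and interleukin-1 receptor signalling, gave 16 and 40 reads in ApoE-/- chow, 0 and 0 in C57BL/6J and 0 and 16 in high-fat libraries. With 3 reads per library as the floor this was at least 4.50-fold higher (edgeR, unadjusted p = 0.00037, adjusted p = 0.374), and it passed without C57BL/6J 2 (edgeR, adjusted p = 0.0233). The groups did not overlap, but 1 high-fat ApoE-/- library also had 0 reads. Without the ApoE-/- chow libraries the Peli2 circRNA would not have met the minimum of 5 reads, which in part fixes the higher direction. Interval reads of the host gave no such contrast, with 407 and 400 CPM of Peli2 in ApoE-/- chow and 409 and 455 CPM in C57BL/6J.

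The circRNA of Cdc14b, a dual-specificity phosphatase of the cell cycle, lies at chr13:64243634-64248499. Its reads came to 29 and 22 in ApoE-/- chow, 0 and 1 in C57BL/6J and 54 and 16 in high-fat libraries, so every ApoE-/- library was above both wild-type ones. The ratio of the summed reads per library total was 52.3, with an exact 95% interval of 8.98 to 2107 for counting error alone (edgeR, adjusted p = 0.811). It passed without C57BL/6J 2, the library with the 1 read (edgeR, adjusted p = 0.00134). All junction reads of Cdc14b together were 40 and 22 in ApoE-/- chow and 14 and 1 in C57BL/6J, a log2 fold change of 2.25 ± 0.97 (edgeR, unadjusted p = 0.020). Interval reads of the gene were level, at 45.7 and 54.2 CPM in ApoE-/- chow and 56.1 and 41.8 CPM in C57BL/6J.

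The circRNA of Magi1 (chr6:93755014-93773689), a scaffold protein of cell junctions, had 10 and 15 reads in ApoE-/- chow and 0 and 0 in C57BL/6J. That of Hoxb3 (chr11:96322111-96323445), a homeobox transcription factor, had 32 and 24 in ApoE-/- chow and 4 and 0 in C57BL/6J. High-fat libraries had 10 and 1 reads for Magi1 and 10 and 0 for Hoxb3. All 4 ApoE-/- libraries thus held Magi1 reads and neither C57BL/6J library did. A count of 0 in C57BL/6J 2 still allows 81.6 of every 100000 junction reads. Magi1 stood at 68.7 and 104 per 100000 in ApoE-/- chow and at 28.8 and 6.08 in high-fat libraries. Without the ApoE-/- chow libraries the circRNAs of Magi1 and Hoxb3 would not have met the minimum of 5 reads. That in part fixes their higher direction. For Adrm1 (chr2:180173910-180174395), a ubiquitin receptor of the proteasome, all 24 reads of the ApoE-/- chow group were in 1 library, ApoE-/- chow 1.

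Among those lower in ApoE-/- chow the lowest p belonged to circRNAs of Atp2a2, Nf2, Ptpra, Zfp426 and Hipk3, and all 5 had 0 junction reads in both ApoE-/- chow libraries. None passed (edgeR, adjusted p = 0.811 for each). Atp2a2 encodes the calcium pump of the sarcoplasmic and endoplasmic reticulum, which loads the stores that smooth muscle contraction draws on. Its circRNA at chr5:122489238-122491785 had 0 and 0 reads in ApoE-/- chow, 17 and 8 in C57BL/6J and 13 and 5 in high-fat libraries. The ApoE-/- chow level was at least 6.38-fold lower than that of C57BL/6J, while both high-fat ApoE-/- libraries held the circRNA.

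The circRNA of Nf2, the tumour suppressor merlin, at chr11:4780578-4784563 had 0 and 0 reads in ApoE-/- chow, 27 and 4 in C57BL/6J and 20 and 4 in high-fat libraries. The circRNA of Ptpra, a receptor tyrosine phosphatase, at chr2:130549485-130549842 had 0 and 0 reads in ApoE-/- chow, 11 and 6 in C57BL/6J and 0 and 6 in high-fat libraries. Zfp426, a zinc-finger gene, and Hipk3, a kinase gene, were read in 1 wild-type library each. Zfp426 had 0 and 0 reads in ApoE-/- chow, 30 and 0 in C57BL/6J and 42 and 0 in high-fat libraries. Hipk3 had 0 and 0 in ApoE-/- chow, 31 and 0 in C57BL/6J and 0 and 10 in high-fat libraries. Each circRNA was thus held by 1 high-fat ApoE-/- library. The shares of Zfp426 and Hipk3 in C57BL/6J 1 were 114 and 118 per 100000, and a count of 0 allows 81.6 in C57BL/6J 2. Those shares carry counting error of their own, and a difference between the wild-type libraries was not tested. Without the C57BL/6J libraries the circRNAs of Nf2, Ptpra, Zfp426 and Hipk3 would not have met the minimum of 5 reads, which in part fixes the lower direction. Interval reads of Zfp426 were 5.90 and 19.1 CPM in ApoE-/- chow, 42.1 and 36.6 CPM in C57BL/6J and 55.2 and 22.2 CPM in high-fat libraries (log2 -1.65 ± 0.74; edgeR, unadjusted p = 0.034). There the chow groups did not overlap.

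Some circRNAs owed all their reads to 1 library. A Gigyf2 circRNA at chr1:87364104-87380008, from a gene for a translational repressor, had 195 and 0 reads in ApoE-/- chow, 0 and 0 in C57BL/6J and 0 in both high-fat libraries. A Phf21a circRNA at chr2:92214049-92230724, from a gene for a reader of histone H3 in the LSD1 complex, had 0 and 0 reads in ApoE-/- chow, 218 and 0 in C57BL/6J and 0 in both high-fat libraries. In the same way 25 reads of a Zfp827 circRNA stood in ApoE-/- chow 1 and 48 reads of a Specc1l circRNA in C57BL/6J 1, with 0 in the other 5 libraries. Read in 1 library each, these 4 did not meet the minimum for testing.

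The most abundant circRNAs were present in both genotypes at overlapping shares, Papd7 apart. The first came from Nfix, which encodes a nuclear factor I protein, and spans chr8:84771784-84772315. It made up 2027 and 2782 of every 100000 junction reads in ApoE-/- chow, against 2291 and 1034 in C57BL/6J, a log2 fold change of 0.54 ± 0.53 (edgeR, adjusted p = 1.00). It was the most abundant circRNA in each of the 4 libraries, and C57BL/6J 2 alone was low. The circRNA of Arhgap32, a GTPase-activating protein, stood at 563 and 856 per 100000 in ApoE-/- chow and at 888 and 435 in C57BL/6J. That of Elf2, an ETS-family transcription factor, stood at 474 and 683 in ApoE-/- chow and at 789 and 408 in C57BL/6J. In both cases the wild-type libraries enclosed the ApoE-/- ones.

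Pcdh7, a protocadherin, gave 1120 and 0 junction reads per 100000 in ApoE-/- chow and 880 and 0 in C57BL/6J, so a high and an absent library stood in each genotype. The circRNA of Papd7, a non-canonical poly(A) polymerase, had 474 and 483 per 100000 in ApoE-/- chow and 307 and 299 in C57BL/6J. It was the one of the 10 whose groups did not overlap, with means of 479 ± 6.48 and 303 ± 5.64 (SD, n = 2 each), though C57BL/6J 2 rests on 11 reads and the test did not pass (log2 0.70 ± 0.77; edgeR, adjusted p = 1.00). High-fat libraries, at 331 and 456 per 100000, lay between. The shares of Rnf169, Tasp1, Pdlim5, Rad52 and Ogdh overlapped between genotypes. Ogdh, a dehydrogenase of the citric acid cycle, had 467 and 476 per 100000 in ApoE-/- chow and 470 and 218 in C57BL/6J.

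**Figure D2:**
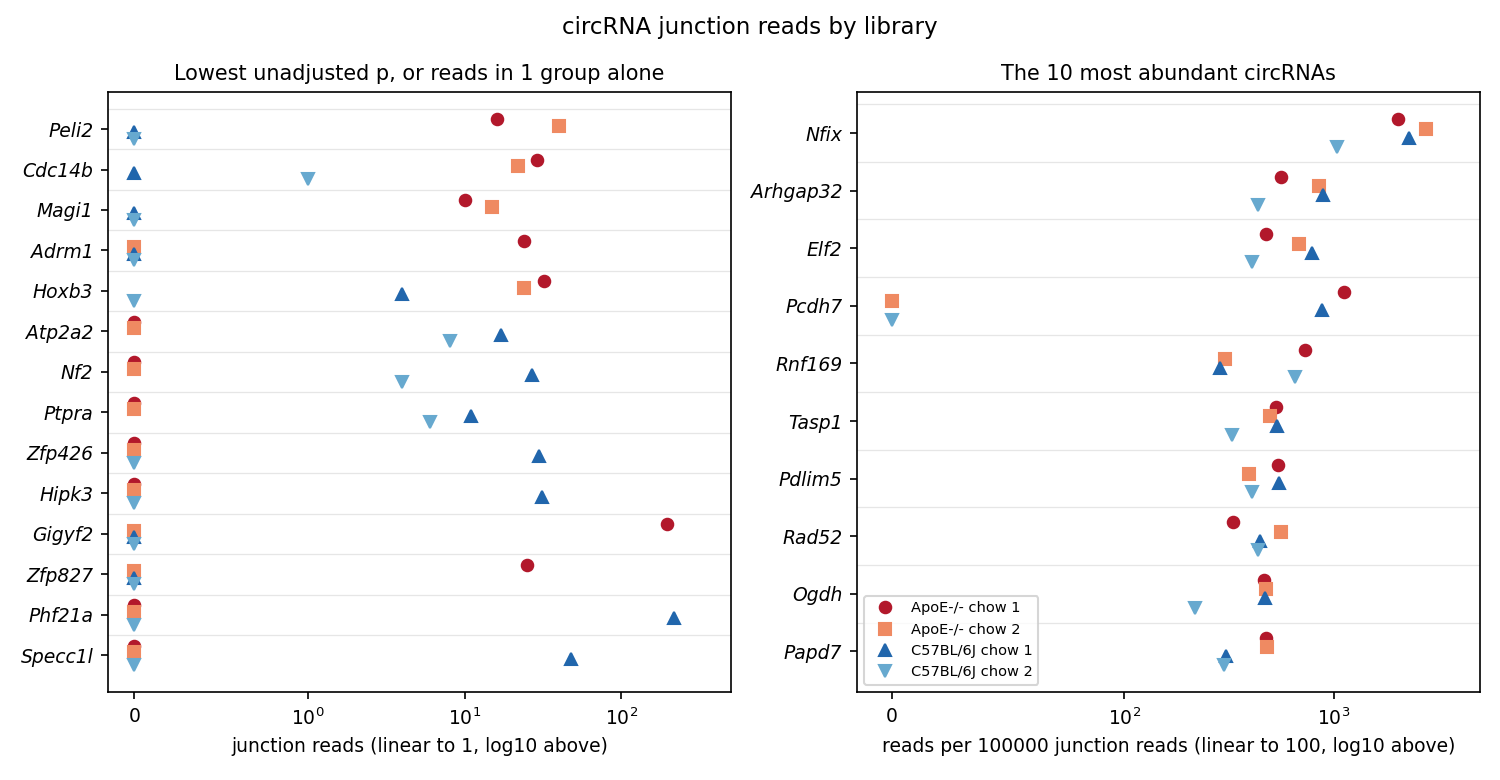
Left, junction reads of the circRNAs with the lowest unadjusted p and of those with reads in 1 group alone; right, reads per 100000 junction reads of the 10 most abundant circRNAs; both axes are linear near 0 and logarithmic above. Each symbol is 1 library: Atp2a2 has 0 and 0 reads in ApoE-/- chow and 17 and 8 in C57BL/6J, and Papd7 alone among the abundant ones has ApoE-/- chow (474 and 483) clear of C57BL/6J (307 and 299).

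Summing junction reads per host gene gave the same number of calls. Of 1259 host genes tested, 0 passed (edgeR; 0 by DESeq2), 0% in each direction, with 50 (3.97%) at an unadjusted p under 0.05 by edgeR, 27 higher (2.14%) and 23 lower (1.83%), and 27 by DESeq2. The groups did not overlap for 216 hosts higher in ApoE-/- chow (17.2%) and 97 lower (7.7%). The median log2 fold change was 0.15, and -0.12 with scaling to total reads.

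Of the 5 hosts with the lowest p among those lower in ApoE-/- chow, 4 had 0 junction reads in both ApoE-/- chow libraries. H2afy, which encodes the histone variant macroH2A1, stood at 0 and 0 in ApoE-/- chow, 13 and 14 in C57BL/6J and 3 and 0 in high-fat libraries, from 2 intervals. By the floor it was at least 9.30-fold lower (adjusted p = 0.130 by edgeR) and passed at an adjusted p of 0.039 (edgeR) when the 4 chow libraries were fitted alone. It met the minimum of 5 reads only through the 2 C57BL/6J libraries, which in part fixes that direction, and it could not be fitted without either of them. Atp2a2 had 0 and 0 in ApoE-/- chow and 21 and 8 in C57BL/6J over its 4 intervals, at least 6.59-fold lower. Ptpra had 0 and 0 in ApoE-/- chow and 14 and 10 in C57BL/6J over 5 intervals, a level at least 7.09-fold below that of C57BL/6J (adjusted p of 0.183 for both by edgeR). Most of those reads are the ones of the single circRNAs above, so these sums are no separate measurement. Without the C57BL/6J libraries the Ptpra sum would not have met the minimum of 5 reads, which in part fixes its lower direction. Hip1, a clathrin adaptor gene, had 0 and 0 in ApoE-/- chow, 33 and 0 in C57BL/6J and 34 and 11 in high-fat libraries. Phf21a, at 6 and 9 in ApoE-/- chow and 233 and 2 in C57BL/6J, rested on the 1 circRNA of C57BL/6J 1: its log2 fold change was -3.26 ± 0.89 (edgeR, adjusted p = 0.130) with that library and 0.05 without it. It passed when C57BL/6J 2 was left out (edgeR, adjusted p = 9.57e-06) and with the 4 chow libraries alone (edgeR, adjusted p = 0.0434).

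On the higher side, Gigyf2 summed to 195 and 5 reads in ApoE-/- chow and 13 and 3 in C57BL/6J, a log2 fold change of 3.54 ± 0.88 (edgeR, adjusted p = 0.0797). Without ApoE-/- chow 1, the library with C57 column names, it was -0.73, and without ApoE-/- chow 2 it passed at 4.53 (edgeR, adjusted p = 0.00807). Dhrsx, a dehydrogenase gene placed on an unlocalized scaffold of chromosome 4, had 14 and 10 reads in ApoE-/- chow, 0 and 0 in C57BL/6J and 16 and 3 in high-fat libraries. All 4 ApoE-/- libraries had reads of it and neither wild-type library did (at least 1.98-fold higher; edgeR, adjusted p = 0.696). A count of 0 in C57BL/6J 2 still allows 81.6 of every 100000 junction reads. It therefore does not place that library below every ApoE-/- one for Dhrsx. Hoxb3 with 32 and 24 against 4 and 0, and Magi1 with 10 and 26 against 1 and 0, repeat their circRNAs in part. The fifth, fantom3_F730114K07, had 3 and 17 against 0 and 0. Without the ApoE-/- chow libraries the sums of Dhrsx, Hoxb3 and Magi1 would not have met the minimum of 5 reads. That in part fixes their higher direction.

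Interval reads of the same hosts did not share these contrasts. For 9 of the 10 hosts the interval sums could be tested, and their log2 fold changes ran from -0.32 to 0.32. Atp2a2 had 317 and 219 CPM of interval reads in ApoE-/- chow and 377 and 131 CPM in C57BL/6J (log2 0.08 ± 0.51). Ptpra had 158 and 134 CPM in ApoE-/- chow and 136 and 134 CPM in C57BL/6J (log2 0.11 ± 0.46). Gigyf2 had 131 and 105 CPM in ApoE-/- chow and 108 and 110 CPM in C57BL/6J (log2 0.12 ± 0.46). H2afy, at 224 and 182 CPM in ApoE-/- chow and 387 and 120 CPM in C57BL/6J, was enclosed by the wild-type pair (log2 -0.32 ± 0.52). The difference between the junction and interval fold changes was not itself tested.

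Interval reads measured 6117 host genes, and 0 passed here too (edgeR; 0 by DESeq2), 0% in each direction. At an unadjusted p under 0.05 there were 158 (2.58%) by edgeR, 75 higher (1.23%) and 83 lower (1.36%), and 112 by DESeq2. The groups did not overlap for 779 hosts higher and 779 lower in ApoE-/- chow, 12.7% each. Both ApoE-/- chow libraries lay between the C57BL/6J libraries for 1816 hosts (29.7%), against 737 (12%) for which both C57BL/6J libraries lay between the ApoE-/- ones. The median log2 fold change was -0.00, and 0.16 with scaling to total reads.

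The hosts with the lowest p among those higher in ApoE-/- chow were Ubap2, fantom3_A830006E17, Ace, Barx2 and Nov (edgeR, adjusted p = 0.9999 for each). Ace, the angiotensin-converting enzyme that endothelium presents to the blood, had 149 and 164 CPM in ApoE-/- chow, 74.1 and 26.1 CPM in C57BL/6J and 141 and 231 CPM in high-fat libraries, from 1 interval at chr11:105988016-105988593. All 4 ApoE-/- libraries were above both wild-type ones, and the log2 fold change was 1.65 ± 0.53. It kept its sign without each chow library in turn, from 1.08 without C57BL/6J 2 to 2.62 without C57BL/6J 1, where it passed (edgeR, adjusted p = 0.0109).

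Nov, also called Ccn3, a secreted matricellular protein, had 105 and 51.0 CPM in ApoE-/- chow, 32.1 and 15.7 CPM in C57BL/6J and 84.1 and 73.5 CPM in high-fat libraries. The log2 fold change of Nov was 1.72 ± 0.57, and 1.09 without ApoE-/- chow 1. Ubap2, a ubiquitin-associated protein gene, had 39.8 and 62.2 CPM in ApoE-/- chow and 4.01 and 10.5 CPM in C57BL/6J, a log2 fold change of 2.76 ± 0.77. Barx2, a homeobox gene, had 38.4 and 65.4 CPM in ApoE-/- chow and 2.00 and 17.4 CPM in C57BL/6J. High-fat libraries had 51.3 and 23.9 CPM of Ubap2 and 38.1 and 30.8 CPM of Barx2, again above both wild-type values. The wild-type values of Ubap2 rest on 2 and 6 reads and those of Barx2 on 1 and 10 reads. With junction reads added, Ubap2 was at log2 0.86 in place of 2.76. The transcript fantom3_A830006E17 had 12 and 15 reads in ApoE-/- chow and 0 and 0 in C57BL/6J, at least 3.71-fold higher. It met the minimum of 10 reads only through the ApoE-/- chow pair, which in part fixes that direction, and it could not be fitted without either library of the pair.

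The 5 on the lower side were Mcc, Klhl12, Megf11, Ak4 and Itpk1 (edgeR, adjusted p = 0.9999 for each). Mcc, a regulator of Wnt signalling, had 10.3 and 16.0 CPM in ApoE-/- chow and 34.1 and 108 CPM in C57BL/6J, a log2 fold change of -2.43 ± 0.66. Klhl12, a substrate adaptor of a cullin ubiquitin ligase, had 8.85 and 11.2 CPM in ApoE-/- chow and 28.0 and 87.1 CPM in C57BL/6J. Both were highest in C57BL/6J 2, and without that library their log2 fold changes were -1.36 for Mcc and -1.47 for Klhl12. Both passed without C57BL/6J 1 (edgeR, adjusted p = 0.0109 for Mcc and 0.0293 for Klhl12).

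Megf11, a transmembrane protein with repeated EGF-like domains, had 4.43 and 9.57 CPM in ApoE-/- chow and 46.1 and 47.0 CPM in C57BL/6J, where the wild-type pair was close. Without the C57BL/6J pair Megf11 would not have met the minimum of 10 reads, which in part fixes the lower direction. Its log2 fold change was -2.71 ± 0.82, and it lay between -3.34 and -2.26 with each chow or high-fat library left out. Ak4, a mitochondrial adenylate kinase, had 4.43 and 6.38 CPM in ApoE-/- chow, 52.1 and 34.8 CPM in C57BL/6J and 7.89 and 5.13 CPM in high-fat libraries. Itpk1, an inositol phosphate kinase, had 1 and 1 reads in ApoE-/- chow, 11 and 22 in C57BL/6J and 2 and 4 in high-fat libraries. For Ak4 and Itpk1 all 4 ApoE-/- libraries were below both wild-type ones. Both hosts met the minimum of 10 reads only through the C57BL/6J pair, which in part fixes that order, and neither could be fitted without either library of it. The summed Itpk1 reads gave a ratio of 0.0499 (exact 95% interval 0.00580 to 0.195, counting error only).

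**Figure D3:**
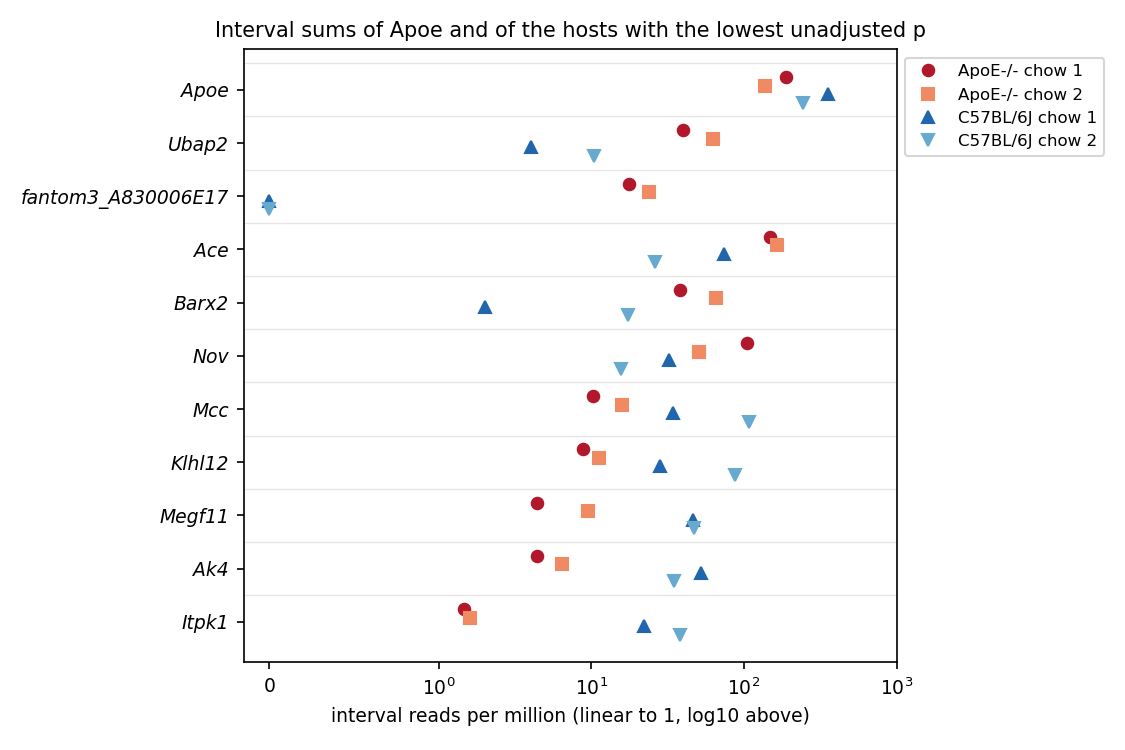
Interval reads (CPM) in the 4 chow libraries for Apoe and for the 10 host genes with the lowest unadjusted p (axis linear to 1 and logarithmic above; each symbol is 1 library). Ace stands at 149 and 164 CPM in ApoE-/- chow and at 74.1 and 26.1 CPM in C57BL/6J, and Megf11 at 4.43 and 9.57 against 46.1 and 47.0 CPM.

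The number of hosts called depended on which wild-type library was in the fit. Without C57BL/6J 1 the interval test called 65 hosts, 63 higher and 2 lower in ApoE-/- chow, among the higher ones Flna, Acta2, Cnn1, Myl9, Mylk, Smtn, Fn1, Gsn and Ace, named after their values were seen. C57BL/6J 2 was then assumed to vary like the other groups. In 28 of those 63 hosts the omitted C57BL/6J 1 was above both ApoE-/- chow libraries, and in 11 it was below both. Without C57BL/6J 2 there were 3 calls, Cebpa, Wdfy1 and Itgb3, all lower in ApoE-/- chow. Without ApoE-/- chow 1 or ApoE-/- chow 2 there were 0.

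**Figure D4:**
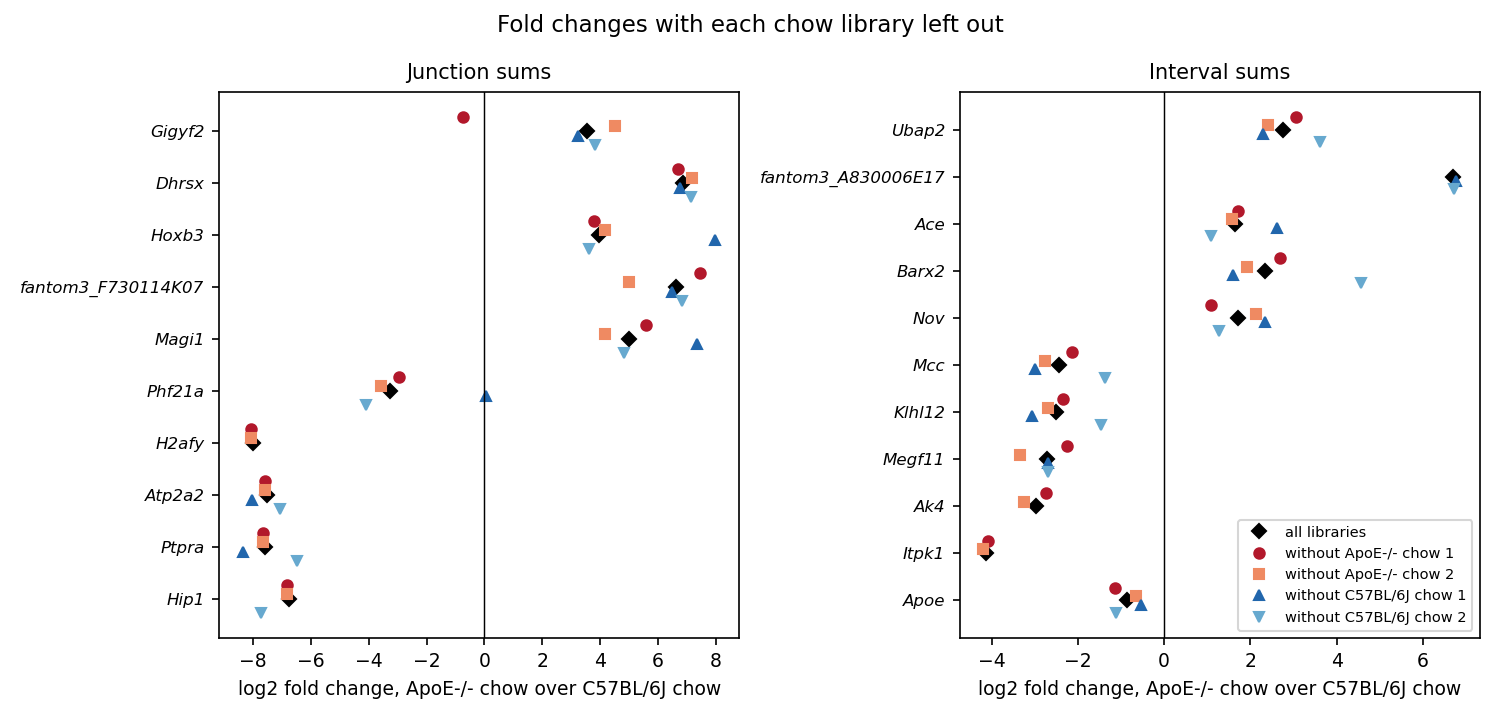
Log2 fold change of ApoE-/- chow over C57BL/6J chow for the named hosts by junction sums (left) and interval sums (right), with all libraries (black) and without each chow library (coloured); a point is missing where the host could not be fitted. Gigyf2 is at 3.54 with all libraries and -0.73 without ApoE-/- chow 1, Phf21a at -3.26 with all and 0.05 without C57BL/6J 1, and Ace stays between 1.08 and 2.62.

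Gene lists were described by their interval sums, and 0 members of any list passed (edgeR). In whole tissue, fewer cells of a type and less RNA per cell cannot be told apart. The summed level of 16 of 22 lists with at least 3 tested members lay, in both ApoE-/- chow libraries, between the 2 C57BL/6J libraries. No list had both ApoE-/- sums above or both below the C57BL/6J pair. With scaling to total reads, which put the median log2 fold change of all hosts at 0.16, the medians of all 22 lists were above 0, that of sterol and fatty acid synthesis at 0.05. Each list is read below against the 12.7% of hosts whose groups did not overlap in each direction.

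Of 16 lipoprotein receptor and apolipoprotein genes tested, 9 had positive and 7 negative fold changes, with a median log2 of 0.02, which ran from -0.29 to 0.50 with 1 library left out. Lrp1, the large remnant receptor of the LDL receptor family, had 1144 and 1233 CPM in ApoE-/- chow and 1280 and 577 CPM in C57BL/6J. Sorl1 had 366 and 381 CPM in ApoE-/- chow and 529 and 253 CPM in C57BL/6J. Members lower in ApoE-/- chow with groups apart were Apoe, Apobec1 and Angptl4. Angptl4, an inhibitor of lipoprotein lipase, had 54.6 and 41.5 CPM in ApoE-/- chow and 124 and 62.7 CPM in C57BL/6J (log2 -0.95 ± 0.53; edgeR, unadjusted p = 0.080).

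Of 16 genes of sterol and fatty acid synthesis, 7 had positive and 9 negative fold changes (median log2 -0.16). Srebf2, the transcription factor of cholesterol synthesis, had 48.7 and 28.7 CPM in ApoE-/- chow and 18.0 and 19.2 CPM in C57BL/6J. The 3 members apart in the other direction were Fdft1, Scap and Insig2. Fdft1, which makes squalene, had 60.5 and 81.4 CPM in ApoE-/- chow and 82.1 and 118 CPM in C57BL/6J. Scap, the escort of SREBP proteins, had 22.1 and 12.8 against 32.1 and 27.9 CPM, and Insig2, which retains Scap in the endoplasmic reticulum, had 51.6 and 16.0 against 60.1 and 55.8 CPM. The log2 fold change of Srebf2 was 1.05 ± 0.67 and those of Fdft1, Scap and Insig2 were -0.50, -0.77 and -0.77. Fasn, the fatty acid synthase, had 1313 and 874 CPM in ApoE-/- chow and 1482 and 551 CPM in C57BL/6J.

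Of 18 genes of cholesterol efflux and intracellular transport, 11 had positive and 7 negative fold changes (median log2 0.09). Nr1h3, the oxysterol receptor LXR alpha, had 64.9 and 81.4 CPM in ApoE-/- chow, 44.1 and 38.3 CPM in C57BL/6J and 64.4 and 109 CPM in high-fat libraries (log2 0.83 ± 0.51; edgeR, unadjusted p = 0.12). Npc2, which hands cholesterol out of lysosomes, had 102 and 81.4 CPM in ApoE-/- chow and 178 and 118 CPM in C57BL/6J. The groups were apart for these 2 genes of the list and no other.

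Smooth muscle genes had the highest summed level of the lists in each chow library but C57BL/6J 2. In that library matrix genes summed to 23915 CPM and smooth muscle genes to 21033 CPM. The aorta label was met by Acta2 at 5057 and 4800 CPM in ApoE-/- chow and 10619 and 1932 CPM in C57BL/6J, and by Myh11 at 8297 and 4663 CPM in ApoE-/- chow and 7252 and 2045 CPM in C57BL/6J. Flna, the actin crosslinker filamin A, had 11800 and 9237 CPM in ApoE-/- chow and 13435 and 2509 CPM in C57BL/6J. All 3 were lowest in C57BL/6J 2. Of 33 tested members, 22 had positive and 11 negative fold changes, with a median log2 of 0.12, which ran from -0.16 to 0.76 with 1 library left out. The groups were apart for 7 higher and 2 lower members. Smtn, the contractile marker smoothelin, had 567 and 571 CPM in ApoE-/- chow, 367 and 127 CPM in C57BL/6J and 465 and 973 CPM in high-fat libraries (log2 1.21 ± 0.52; edgeR, unadjusted p = 0.028). Every ApoE-/- library was above both wild-type ones for Smtn.

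Matrix genes were mixed. Of 40 tested, 24 had positive and 16 negative fold changes (median log2 0.06, from -0.16 to 0.72 with 1 library left out), and the groups were apart for 4 in each direction. Fn1, fibronectin, had 4204 and 4377 CPM in ApoE-/- chow, 3033 and 1239 CPM in C57BL/6J and 3798 and 8522 CPM in high-fat libraries (log2 1.01 ± 0.52; edgeR, unadjusted p = 0.061). Eln, the elastin of the aortic lamellae, had 5679 and 6210 CPM in ApoE-/- chow and 14571 and 5952 CPM in C57BL/6J. Col5a1, a fibril-regulating collagen chain, had 98.9 and 89.3 CPM in ApoE-/- chow and 150 and 145 CPM in C57BL/6J (log2 -0.65 ± 0.47). Of the 19 fibroblast genes, 14 had positive and 5 negative fold changes (median log2 0.18, from -0.13 to 0.61 with 1 library left out). The groups were apart for 3 higher fibroblast members, Loxl1, Lama2 and Nfib, and 1 lower, Col1a1. Loxl1 had 176 and 147 CPM in ApoE-/- chow and 118 and 67.9 CPM in C57BL/6J. Lama2 had 251 and 241 against 180 and 159 CPM, and Nfib had 251 and 222 against 118 and 176 CPM. Col1a1 had 612 and 561 CPM in ApoE-/- chow and 659 and 730 CPM in C57BL/6J.

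Macrophage genes were few in the tables, 10 tested of 30 listed. Gpnmb, a glycoprotein known from foam cells, had 66.4 and 183 CPM in ApoE-/- chow, 38.1 and 57.5 CPM in C57BL/6J and 372 and 499 CPM in high-fat libraries. The 3 groups did not overlap, and for the chow comparison the log2 fold change was 1.38 ± 0.54 (edgeR, unadjusted p = 0.016). Ctsd, a lysosomal protease, had 323 and 378 CPM in ApoE-/- chow, 242 and 106 CPM in C57BL/6J and 400 and 722 CPM in high-fat libraries (log2 1.01 ± 0.51; edgeR, unadjusted p = 0.055). Lyz1, a lysozyme, overlapped between groups at 245 and 348 CPM in ApoE-/- chow and 286 and 146 CPM in C57BL/6J, and Mrc1 had 72.3 and 75.0 CPM in ApoE-/- chow and 132 and 74.9 CPM in C57BL/6J. Of the 10, 7 had positive and 3 negative fold changes, with a median log2 of 0.34, which ran from 0.02 to 0.71 with 1 library left out. The summed level was 1875 and 2278 CPM in ApoE-/- chow and 1601 and 1901 CPM in C57BL/6J, which overlapped. The highest of the list was Itgax, at 1092 and 1180 CPM in ApoE-/- chow and 815 and 1444 CPM in C57BL/6J. The intervals listed under Itgax and under Lyz1 reach beyond those genes, so their reads need not be of either gene.

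Of 20 endothelial genes, 13 had positive and 7 negative fold changes (median log2 0.16). Kdr, a receptor of vascular endothelial growth factor, had 38.4 and 28.7 CPM in ApoE-/- chow and 28.0 and 12.2 CPM in C57BL/6J, while Tie1, another endothelial receptor kinase, had 33.9 and 41.5 CPM in ApoE-/- chow and 42.1 and 67.9 CPM in C57BL/6J. None of 23 adipocyte genes had groups apart (9 positive, 14 negative, median log2 -0.07, from -0.66 to 0.90 with 1 library left out). Adipocyte genes tracked the library rather than the genotype: their median log2 deviation from the mean of the 4 libraries was 0.42 and -0.30 in ApoE-/- chow and 0.59 and -0.61 in C57BL/6J. Beside every interval result above stands this spread of fat-cell genes within each genotype, and its part in the results was not tested.

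Markers of other cell types were sparse. The lymphocyte list had 5 tested members, with summed levels of 1564 and 2082 CPM in ApoE-/- chow and 1208 and 2382 CPM in C57BL/6J, nearly all from Foxp1. Striated muscle had 4, led by Myh2 at 2590 and 3213 CPM in ApoE-/- chow and 2248 and 3493 CPM in C57BL/6J. The intervals listed under Myh2 reach beyond that gene on both sides, so these reads need not be of it. Blood cell genes had 5 tested members, at 295 and 278 CPM in ApoE-/- chow and 313 and 267 CPM in C57BL/6J. Nav3, listed with Schwann and neural genes, had 78.2 and 107 CPM in ApoE-/- chow and 34.1 and 45.3 CPM in C57BL/6J (log2 1.21 ± 0.51; edgeR, unadjusted p = 0.023), while its list had 1 positive and 2 negative members. The Y-linked Uty had 22.1 and 19.1 CPM in ApoE-/- chow and 54.1 and 13.9 CPM in C57BL/6J, so each chow library held Y-linked RNA.

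**Figure D5:**
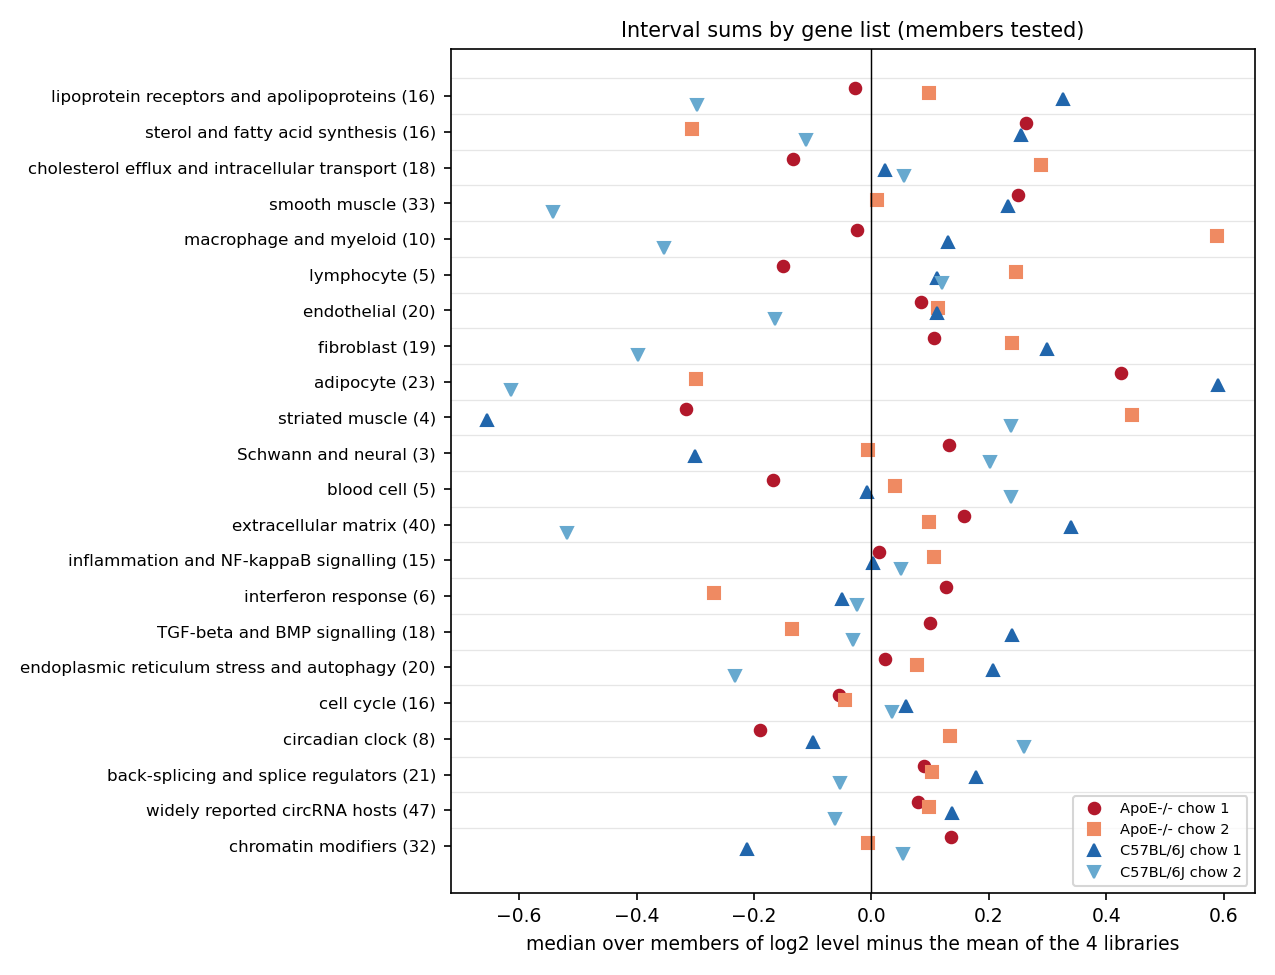
Median over list members of the log2 level (CPM plus 1) minus the mean of the 4 chow libraries, by gene list; each symbol is 1 library and the number of tested members is in brackets. For smooth muscle the medians are 0.25 and 0.01 in ApoE-/- chow and 0.23 and -0.54 in C57BL/6J, and for adipocyte genes 0.42 and -0.30 against 0.59 and -0.61.

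Inflammation and NF-kappaB genes had 6 positive and 9 negative fold changes of 15 (median log2 -0.02). Nlrp3, the inflammasome sensor, had 1.48 and 9.57 CPM in ApoE-/- chow and 24.0 and 20.9 CPM in C57BL/6J, which is 1 and 6 reads in ApoE-/- chow and 12 and 12 in C57BL/6J. It was tested only because both C57BL/6J libraries reached the minimum of 10 reads, which in part fixes that order. TGF-beta and BMP genes had 8 positive and 10 negative of 18 (median log2 -0.04). Smad3, a transcription factor of that pathway, had 139 and 161 CPM in ApoE-/- chow and 264 and 192 CPM in C57BL/6J. Endoplasmic reticulum stress and autophagy genes split 10 and 10 of 20 (median log2 -0.02), interferon response genes 2 and 4 of 6 (-0.11), and circadian genes 2 and 6 of 8 (-0.09). With 1 library left out these 3 medians ran from -0.19 to 0.32 for the stress and autophagy genes, from -0.36 to 0.14 for interferon response genes and from -0.25 to 0.31 for circadian genes. Cell cycle genes had 6 positive and 10 negative of 16 (median log2 -0.10), and the 3 whose groups were apart, Rb1, Mcm6 and Aurka, were all lower in ApoE-/- chow.

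Regulators of back-splicing bear on circRNA output and were therefore read beside it. Of 21 tested, 16 had positive and 5 negative fold changes, with a median log2 of 0.09. Adar, the editing enzyme whose loss raises circRNAs in mammalian cells, had 121 and 126 CPM in ApoE-/- chow and 108 and 113 CPM in C57BL/6J (log2 0.16 ± 0.46). Mbnl1, a muscleblind splicing factor, had 360 and 260 CPM in ApoE-/- chow and 429 and 336 CPM in C57BL/6J. Of 47 genes known as circRNA hosts, 27 had positive and 20 negative fold changes by interval reads (median log2 0.06). Rims1, a presynaptic scaffold gene, was lower at 14.8 and 11.2 CPM in ApoE-/- chow, against 52.1 and 45.3 CPM in C57BL/6J (log2 -1.89 ± 0.71; edgeR, unadjusted p = 0.012). By junction sums 38 of these hosts could be tested, 24 with positive and 14 with negative fold changes and a median log2 of 0.29, beside 55.9% positive and a median of 0.15 over all 1259 hosts.

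Of 32 chromatin modifier genes, 24 had positive and 8 negative fold changes by interval reads (median log2 0.16), beside 49.8% positive and a median of -0.00 over all 6117 hosts. With 1 library left out the list's median ran from 0.00 to 0.27. Kdm5a, a histone H3 demethylase, had 84.1 and 131 CPM in ApoE-/- chow and 40.1 and 69.7 CPM in C57BL/6J (log2 0.96 ± 0.49; edgeR, unadjusted p = 0.058). Arid1b, a subunit of the BAF remodelling complex, had 1095 and 1201 CPM in ApoE-/- chow and 978 and 1427 CPM in C57BL/6J. The groups were apart for 2 higher members, Dot1l and Kdm5a, and 1 lower, Nsd1.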

How the data were processed

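Per the file headers, each table gives a count, an RPM value and a junction count for each circRNA. The deposited counts are raw reads with junction reads included. The deposited RPM values, the authors' counts per 1000000 total reads, gave the library totals. For some circRNAs, among them those of Magi1, Nfix, Elf2, Pcdh7, Tasp1, Pdlim5, Ogdh and Papd7, the count equals the junction count in every library. Counts, and so interval reads, therefore need not hold every read of an interval. The submitters' processing notes name TopHat, HTSeq and GRCm38 (mm10), without versions; the back-splice caller and any strand setting are not given in the sources used here. Without strand, antisense or overlapping neighbours can add to interval reads.

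A circRNA missing from a table was set to 0. Interval reads are count minus junction reads, summed per host symbol; 2133 of 20532 circRNAs have no symbol. Features with at least 5 junction reads, or 10 interval reads, in 2 libraries were tested with edgeR 4.0.16 (R 4.3.3, quasi-likelihood, robust, TMM) in 1 fit of all 6 libraries with 3 residual degrees of freedom, with Benjamini-Hochberg at 0.05 and two-sided tests. DESeq2 1.42.0 was an alternative, and the code was tested on simulated data. Sums, CPM and log2 fold changes are computed here. A fold against 0 reads uses a floor of 3 reads per library; intervals and floors cover counting error only. Genes are named where they pass or, with fewer than 5 passing in a direction, have the lowest p; also Apoe, the 10 most abundant circRNAs, those read in 1 group alone, and up to 4 top members of each list, with further list members whose groups were apart, chosen after their values were seen. The comparison, the members and the 24 gene lists were chosen with earlier results of these data known. Gene bounds come from RefSeq.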

Additional observations from a re-analysis of the deposited data

How the results depend on the processing

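With 2 libraries a group, 3 residual degrees of freedom and C57BL/6J 2 at 3675 junction reads, small differences were not detectable at this depth. For circRNA junction reads the count of calls (edgeR, 0 with all libraries) was 2 with no read minimum (Gigyf2 and Phf21a, 1 library each) and ran from 0 to 3 with 1 library left out: 1 without ApoE-/- chow 1 (Pcdh7), 3 without C57BL/6J 2 (Tlk1, Cdc14b and Peli2). For host junction sums it was 2 with the 4 chow libraries alone (H2afy and Phf21a) and ran from 0 to 1 with 1 library left out. For host interval sums it ran from 0 to 65, the highest without C57BL/6J 1. No other setting made a call in these 3 tests. The ratio of junction yield ran from 0.514 to 3.55 and that of circRNAs detected from 0.708 to 2.11 with 1 chow library left out.

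Replicate numbers are shared by the groups. Deviations of same-numbered libraries from their group means correlated at 0.110 between ApoE-/- chow and C57BL/6J, -0.00 between ApoE-/- chow and high-fat and -0.15 between C57BL/6J and high-fat, so the numbers were not taken to pair the libraries. With the replicate number as a block the calls were 0 in all 3 tests, with 20 circRNAs, 24 junction sums and 152 interval sums at an unadjusted p under 0.05.

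Of 627 settings tried for 41 named features, 584 kept direction and side of the threshold, 9 newly passed in the same direction and 34 turned sign, among them Pcdh7, which passed without ApoE-/- chow 1. The cause was not tested. Turned log2 fold changes with the count column in place of junction reads were -0.48 for Adrm1, -0.19 for Nfix, -0.39 for Arhgap32, -0.88 for Pcdh7, -0.36 for Tasp1, -0.32 for Rad52 and -0.26 for Ogdh. For Nfix, Pcdh7, Tasp1 and Ogdh the count equals the junction count in every library. Their own reads were thus unchanged in that setting, while the library totals used for scaling were not the same. With total-read scaling the turned log2 fold changes were -0.37 for Arhgap32, -0.62 for Pcdh7, -0.14 for Tasp1, -0.14 for Rad52 and -0.039 for Ogdh. With the 4 chow libraries alone they were -0.0070 for Arhgap32 and -0.073 for Rad52. Rad52 was at -0.014 with DESeq2 and with its size factors in edgeR and at -0.0020 with a doubled minimum, and Pdlim5 was at 0.0027 with the replicate block. With 1 library left out the log2 fold change ran from -0.39 to 0.91 for Arhgap32, -0.51 to 0.70 for Elf2, -9.40 to 9.47 for Pcdh7, -0.55 to 0.78 for Rnf169, -0.13 to 0.86 for Tasp1, -0.28 to 0.41 for Pdlim5, -0.37 to 0.38 for Rad52 and -0.058 to 1.32 for Ogdh. For junction sums it ran from -0.73 to 4.53 for Gigyf2 and -4.08 to 0.047 for Phf21a. Of 374 settings for list medians, 337 moved by less than the spread and 37 by more.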
